A study of Homo sapiens with 24 samples.

Results

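Myc peaks were examined at 9 genes whose products set how long the Myc protein lasts: FBXW7, SKP2, HUWE1, USP28, USP36, AURKA, CIP2A, PPP2R1A and GSK3B, out of 20037 protein-coding genes. The genes were taken by name. A gene was marked when a Myc peak reached within 1 kb of either end of its RefSeq span in hg38. MIA PaCa-2, a human pancreatic carcinoma cell line, carried a doxycycline-inducible MED30, a subunit of the Mediator complex that links transcription factors to RNA polymerase II. Myc binding was mapped by CUT&Tag, in which an antibody directs a transposase to cut and tag the DNA around its target. The deposited peak lists of 2 of the 24 samples were used: 1 library labelled as day 5 of doxycycline, the agent that switches MED30 on, and 1 library without doxycycline. Both carried the inducible construct and were lightly fixed, and the shared protocol speaks of 2 days of doxycycline where the title gives day 5. The study asked how added MED30 affects the binding of other factors. The other 22 samples include Myc at day 1 and IgG controls and were not analysed here, so no peak was removed for also appearing with IgG. Peak lists measure neither how much MED30 was made nor the identity of the cells.

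Myc is a short-lived protein. Its level is set by a cycle of phosphorylation, ubiquitination by ligases and removal of ubiquitin by deubiquitinases, which ends in destruction by the proteasome. GSK3B, a kinase, marks Myc for the ligase receptor FBXW7, and the phosphatase PP2A acts on a neighbouring phosphate that otherwise keeps Myc stable. Several of these regulators act in opposite directions, and some tumours carry inactivated FBXW7 or raised AURKA or CIP2A. A Myc peak beside such a gene is CUT&Tag signal listed near the gene of a Myc regulator and does not measure that gene's expression.

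The RefSeq promoter windows (GRCh38.p14, 250 bases before an annotated start to 50 after it) covered 8 of the 9 genes with 15 windows. They were searched on both strands for the E-box CACGTG, the best-known Myc and Max site, and for the variants CACGCG and CATGTG, none of which overlap one another here. CACGTG was found in 2 of the 15 windows, those of USP36 and USP28, each of which also held 1 variant, and 13 windows held none of the 3. The windows of USP36 and USP28 are shown because they share the E-box, yet Myc peaks in both libraries covered the USP36 window and no peak was listed near the USP28 window. The PPP2R1A window is shown because it lay under the strongest peaks of the 9 genes and holds none of the 3 hexamers, and the HUWE1 window because it lay under peaks more than 1 kb from a span end. Capitals mark the hexamers, and each sequence is read 5′ to 3′ on the strand of its gene.
USP36, inner start, chr17:78840765-78841064, minus strand: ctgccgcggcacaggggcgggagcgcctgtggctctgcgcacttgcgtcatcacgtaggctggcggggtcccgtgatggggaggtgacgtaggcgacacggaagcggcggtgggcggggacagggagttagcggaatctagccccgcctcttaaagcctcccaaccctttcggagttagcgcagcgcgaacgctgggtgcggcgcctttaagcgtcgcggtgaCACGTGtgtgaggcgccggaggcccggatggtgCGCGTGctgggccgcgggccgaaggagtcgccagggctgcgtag
USP28, chr11:113875523-113875822, minus strand: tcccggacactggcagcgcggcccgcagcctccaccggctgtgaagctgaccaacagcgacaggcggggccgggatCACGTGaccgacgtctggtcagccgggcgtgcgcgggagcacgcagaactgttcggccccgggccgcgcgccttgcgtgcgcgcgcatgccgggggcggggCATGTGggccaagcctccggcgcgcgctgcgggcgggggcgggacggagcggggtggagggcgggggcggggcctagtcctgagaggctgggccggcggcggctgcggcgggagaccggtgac
PPP2R1A, chr19:52189802-52190101, plus strand: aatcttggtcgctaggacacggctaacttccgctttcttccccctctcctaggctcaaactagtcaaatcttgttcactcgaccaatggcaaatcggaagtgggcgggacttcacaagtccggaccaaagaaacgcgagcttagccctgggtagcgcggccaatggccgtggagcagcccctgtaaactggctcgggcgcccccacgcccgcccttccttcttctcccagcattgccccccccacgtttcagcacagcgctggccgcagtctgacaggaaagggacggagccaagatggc
HUWE1, inner start, chrX:53684087-53684386, minus strand: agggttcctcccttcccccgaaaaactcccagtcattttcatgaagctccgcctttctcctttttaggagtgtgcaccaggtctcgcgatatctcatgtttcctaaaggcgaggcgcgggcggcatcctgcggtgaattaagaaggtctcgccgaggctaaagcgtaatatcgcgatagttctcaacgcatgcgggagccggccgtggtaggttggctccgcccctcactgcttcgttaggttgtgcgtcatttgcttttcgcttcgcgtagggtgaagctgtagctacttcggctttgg

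Over all 35116 promoter windows CACGTG was present in 7.26%, CACGCG in 11.4% and CATGTG in 11.1%. In windows that a Myc peak touched, CACGTG was present in 13.6% at day 5 and 15.7% without doxycycline, CACGCG in 22.9% at day 5 and 24.5% without doxycycline, and CATGTG in 6.22% at day 5 and 7.47% without doxycycline. The windows touched by peaks also had more G and C, with a median of 65.3% at day 5 and 64.3% without doxycycline, against 58.7% over all windows. The part of base composition in these shares was not tested. A hexamer match describes the reference sequence and is not a measured site.

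At day 5 of doxycycline 5 of the 9 genes were marked, where 27.4% of all protein-coding genes were (5486 of 20037). Without doxycycline 6 of the 9 were marked, where 14.4% of all were (2894). FBXW7, USP36, PPP2R1A and GSK3B were marked in both libraries (background 12.9%). CIP2A was marked at day 5 only (14.5%), and SKP2 and AURKA without doxycycline only (1.57%). HUWE1 and USP28 were marked in neither library (71.1%). Each condition had 1 library, so no difference between them has a replicate check and no test was made. Absence from a list means that no peak passed the caller's threshold, not that the gene was free of Myc.

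On chromosomes 1 to 22, X and Y the lists held 6727 peaks at day 5 and 3472 without doxycycline. The number of fragments over each summit was recovered from the deposited fold and −log10 p-value, and had a median of 12 at day 5 and 11 without doxycycline. The lists do not hold total reads, so the depth of the libraries is unknown. In the 2580 protein-coding genes marked in both libraries, the ratio of summit fragments, day 5 over no doxycycline, had a median of 1.43 with a 10th to 90th percentile range of 0.917 to 2.25. The ratio of the local background had a median of 1.63 there. Fragment values of the libraries are therefore set side by side, and a ratio near 1.43 is what a gene in both lists typically had. Intervals on fragments are exact Poisson 95% intervals and those on ratios exact binomial 95% intervals, and they cover counting error only.

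**Figure D1:**
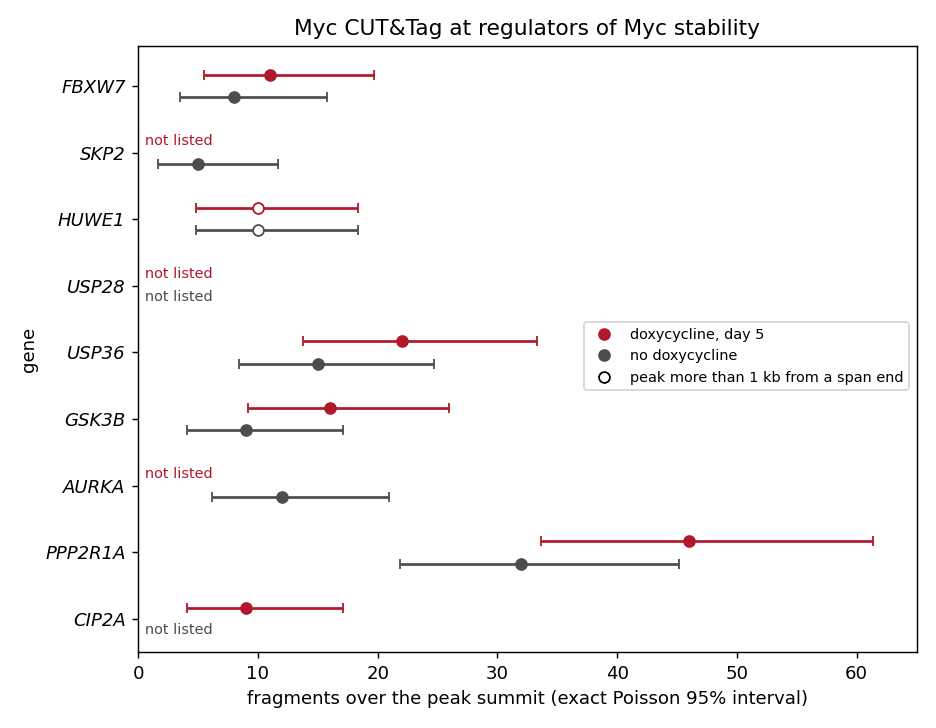
Fragments over the Myc peak summit (x axis) at each of the 9 genes (y axis), at day 5 of doxycycline (red, upper) and without doxycycline (grey, lower), with exact Poisson 95% intervals. PPP2R1A had the most fragments in both libraries, 46 at day 5 and 32 without doxycycline. Open circles mark the HUWE1 peaks, which lay more than 1 kb from a span end.

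Of the 3 ubiquitin ligases, FBXW7 was marked in both libraries, SKP2 in 1 and HUWE1 in neither. FBXW7 is the receptor that brings phosphorylated Myc to the SCF ligase (chromosome 4, span 152320544 to 152536092). It had 11 fragments (5.49 to 19.7) at day 5 and 8 (3.45 to 15.8) without doxycycline. The intervals overlapped, and the ratio of 1.38 (0.504 to 3.94) lay close to the median of genes in both lists. Among marked protein-coding genes, 60.5% at day 5 and 38.4% without doxycycline had a lower −log10 q than FBXW7. The peaks lay outside the gene, before its most upstream annotated start, with summits 317 bp from it at day 5 and 542 bp without doxycycline. No peak was listed at any of the other annotated FBXW7 starts inside the gene.

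SKP2, another F-box receptor that ubiquitinates Myc (chromosome 5, 36152111 to 36193530), was listed without doxycycline only. Its peak there had 5 fragments (1.62 to 11.7) and a −log10 q of 1.61, and stood at rank 3391 of 3472, near the foot of the list. At day 5 the nearest peak lay 48.4 kb from an end of the gene. Of the 58 protein-coding genes marked without doxycycline with a −log10 q no higher than that of SKP2, 28 (48.3%) were not marked at day 5. Of the 2848 with a −log10 q at least as high, 292 (10.3%) were not.

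HUWE1 is a large HECT-type ligase (chromosome X, 53532096 to 53686719). It was not marked by the 1 kb rule, but a peak lay inside the gene in both libraries. It had 10 fragments (4.80 to 18.4) at day 5 and 10 (4.80 to 18.4) without doxycycline, with −log10 q of 4.68 at day 5 and 4.92 without doxycycline. The ratio of 1 (0.374 to 2.68) was below the median of 1.43 for marked genes, and its interval includes that median. The peaks were 2469 bp at day 5 and 2331 bp without doxycycline from the span end. They covered an inner annotated start at 53684136, and another at 53683845 lay just beyond their edge. The day 5 summit was 70 bp after the start at 53684136 and the summit without doxycycline 52 bp before it. The outermost start at 53686719 had no peak. Of the 14237 protein-coding genes marked in neither library, 121 (0.850%) had an annotated promoter window touched by a peak in both. That total includes genes with no promoter window or no inner start. The share therefore does not say how common such a case is among genes with inner starts. Among the marked genes the peak farthest from its span end was that of USP36, 383 bp away at day 5 and 366 bp without doxycycline, so no gene lay close to the 1 kb limit on either side.

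The deubiquitinases differed from each other. USP36 is a nucleolar enzyme that removes ubiquitin from Myc (chromosome 17, 78787381 to 78841439). It had 22 fragments (13.8 to 33.3) at day 5 and 15 (8.40 to 24.7) without doxycycline. The ratio of 1.47 (0.727 to 3.04) was close to the median of shared genes, and the intervals overlapped. Among marked protein-coding genes, 76.7% at day 5 and 65.6% without doxycycline had a lower −log10 q. The summits lay 38 bp at day 5 and 94 bp without doxycycline after the inner annotated start at 78840814, and not at the outermost start. The CACGTG shown above, at chr17:78840836-78840841, was inside both peaks, 62 bp from the summit at day 5 and 118 bp without doxycycline, and the CGCGTG lay 29 bp from the summit at day 5 and 85 bp without doxycycline.

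USP28 removes ubiquitin from Myc by way of FBXW7 (chromosome 11, 113797875 to 113875572). It had no peak over its span or at its ends in either library. The nearest peaks lay 23.7 kb from an end at day 5 and 23.8 kb without doxycycline. Its CACGTG, whose first base is 174 bp before the annotated start, was thus under no listed peak, unlike that of USP36.

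Of the kinases, GSK3B places the phosphate that FBXW7 recognises (chromosome 3, 119821321 to 120094447). It had 16 fragments (9.15 to 26.0) at day 5 and 9 (4.12 to 17.1) without doxycycline. The ratio of 1.78 (0.740 to 4.56) was the highest among the 4 genes marked in both libraries, but the intervals overlapped and it lay inside the 0.917 to 2.25 range of shared genes. The peaks lay across the start of the gene, with summits 93 bp before it at day 5 and 250 bp before it without doxycycline. Within the lists, 59.5% of marked genes at day 5 and 20.6% without doxycycline had a lower −log10 q than GSK3B. Its standing therefore differed more between lists than that of PPP2R1A or USP36.

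AURKA, a mitotic kinase that can shield Myc proteins from FBXW7 (chromosome 20, 56369390 to 56392215), was listed without doxycycline only. The peak there had 12 fragments (6.20 to 21.0), a fold of 7.25 and a −log10 q of 7.40, and stood at rank 1139 of 3472. It began 32 bp outside the span, and at day 5 the nearest peak lay 959 kb from an end of the gene. Without doxycycline 61.5% of marked protein-coding genes had a lower −log10 q than AURKA, and 1.59% a lower one than SKP2. Of the 1114 genes with a −log10 q at least as high as that of AURKA, 38 (3.41%), AURKA included, were not marked at day 5, and of the 1785 with one no higher, 278 (15.6%) were not. Of all 1212 peaks of that list with a −log10 q of 5 to 10, 124 (10.2%) had no counterpart at day 5.

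The phosphatase arm held the strongest peak of the set. PPP2R1A is the scaffold subunit of PP2A (chromosome 19, 52190052 to 52229518). It had 46 fragments (33.7 to 61.4) at day 5 and 32 (21.9 to 45.2) without doxycycline. In each library this was the highest value of the 9 genes, followed by USP36 with 22 at day 5 and 15 without doxycycline. The ratio of 1.44 (0.896 to 2.33) was close to the median of shared genes. By −log10 q it was gene 90 of 5486 marked at day 5 and gene 96 of 2894 without doxycycline. The summits lay 3 bp at day 5 and 34 bp without doxycycline after the annotated start, and the peaks, of 830 bp at day 5 and 591 bp without doxycycline, covered the whole promoter window shown above. The second annotated start of PPP2R1A, inside the gene, had no peak. Among the 2579 other genes marked in both lists, those nearest to PPP2R1A in rank percentile over the 2 libraries were RPS19, a ribosomal protein gene with 41 fragments at day 5 and 32 without doxycycline, B3GALNT2 with 46 at day 5 and 33 without doxycycline, and AKT1S1 with 62 at day 5 and 48 without doxycycline.

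CIP2A inhibits PP2A on Myc (chromosome 3, 108549864 to 108589438) and was listed at day 5 only. Its peak there had 9 fragments (4.12 to 17.1) and a −log10 q of 5.26, at rank 3828 of 6727. Without doxycycline the nearest peak lay 3389 kb from an end of the gene. Of the 2063 protein-coding genes marked at day 5 with a −log10 q no higher than that of CIP2A, 1594 (77.3%) were not marked without doxycycline, and of the 3464 with one at least as high, 1342 (38.7%) were not. When the 3472 highest-ranked peaks were taken from each list, CIP2A was no longer marked at day 5.

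**Figure D2:**
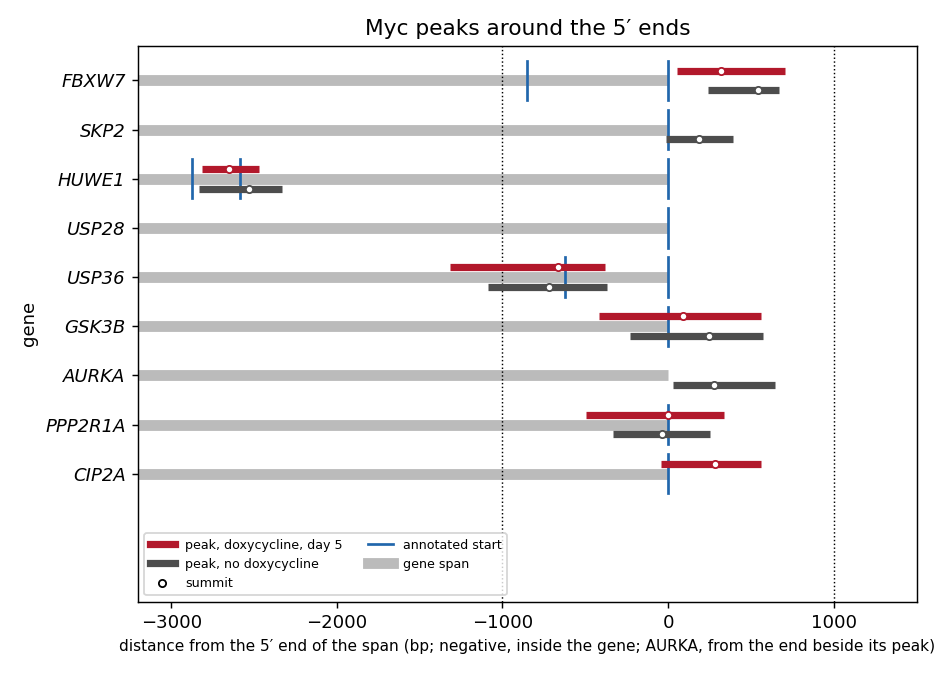
Myc peaks (bars, with summits as circles) around the 5′ end of each gene span (x axis, bp), at day 5 of doxycycline (red, upper) and without doxycycline (grey, lower); dotted lines lie 1000 bp either side, and for AURKA, which has no annotated start in the table used, distance is from the end beside its peak. The PPP2R1A summits lay 3 bp (day 5) and 34 bp (no doxycycline) after the start, and those of HUWE1 and USP36 lay by inner annotated starts.

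The deposited fold at the summit, which is relative to the local background of each library, gave smaller contrasts than the fragments. For FBXW7 it was 7.58 at day 5 and 6.07 without doxycycline, and for GSK3B 6.43 at day 5 and 5.08 without doxycycline. USP36 had 7.05 at day 5 and 7.03 without doxycycline, and PPP2R1A 11.2 at day 5 and 12.1 without doxycycline. The ratio of folds, day 5 over no doxycycline, was thus 0.928 for PPP2R1A and 1.00 for USP36, and 1.25 for FBXW7 and 1.26 for GSK3B, where the median of shared genes was 1.08. All 4 lay inside the 10th to 90th percentile range of shared genes, 0.789 to 1.49.

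**Figure D3:**
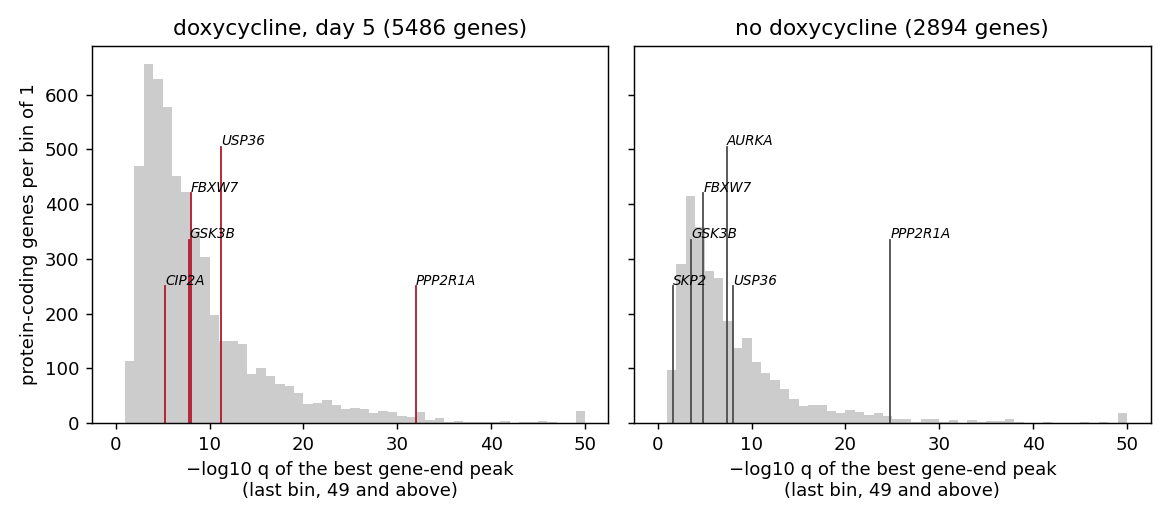
Number of protein-coding genes (y axis) by the −log10 q of their best gene-end Myc peak (x axis, bins of 1), at day 5 of doxycycline (left, 5486 genes) and without doxycycline (right, 2894 genes), with lines at the regulators marked in each. PPP2R1A stood in the upper tail of both lists, and SKP2 near the lower limit of the list without doxycycline.

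Most of these peaks lay where another gene also begins or ends. At day 5, 4 of the 5 marked genes had another annotated gene with an end within 1 kb of the marking peak, as did 58.5% of all marked protein-coding genes. Without doxycycline this held for 5 of 6, beside 60.9% of all. Measured to the ends of the gene spans, the summit was nearer to the other gene in 3 of 5 cases at day 5, beside 28.5% of all marked genes, and in 4 of 6 without doxycycline, beside 30.2%. These counts include USP36, although both of its summits lay inside its span and nearer to its own inner start than to the neighbour. PPP2R1A alone among the marked genes had no such neighbour.

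Each of the 3 genes listed in a single library shared its peak with a protein-coding neighbour, as did 39.7% of all marked protein-coding genes at day 5 and 42.3% without doxycycline. CIP2A lies 71 bases from DZIP3, which is read in the opposite direction, and the day 5 summit was 212 bp from the end of DZIP3 and 284 bp from that of CIP2A. SKP2 lies 223 bases from LMBRD2, also in the opposite direction, with the summit without doxycycline 38 bp from LMBRD2 and 186 bp from SKP2. AURKA lies 163 bases from CSTF1, a cleavage stimulation factor subunit, with the summit 111 bp from CSTF1 and 275 bp from AURKA. To which gene of a pair such a peak belongs cannot be told from the lists. FBXW7, USP36 and GSK3B, marked in both libraries, had non-coding neighbours. For FBXW7 they were MIR4453HG, which begins 145 bp from the day 5 summit and 370 bp from the summit without doxycycline, and MIR4453 within it. For USP36 it was LOC124904067, whose span overlaps that of USP36. For GSK3B it was GSK3B-DT, a divergent transcript, and there both summits were nearer to GSK3B.

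A wider list of 41 other genes that act on Myc turnover was read in the same way. Of these, 19 (46.3%) were marked at day 5 and 14 (34.1%) without doxycycline, 11 of them in both, beside 27.4% of all protein-coding genes at day 5 and 14.4% without doxycycline. Their marked genes had a median of 17 summit fragments at day 5 and 12 without doxycycline. The marked genes among the 9 regulators had 16 at day 5 and 10.5 without doxycycline, and all marked protein-coding genes 12 at day 5 and 11 without doxycycline. A protein-coding neighbour had an end within 1 kb of the marking peak for 4 of the 19 genes at day 5 and 4 of the 14 without doxycycline. Among all marked protein-coding genes this held for 39.7% at day 5 and 42.3% without doxycycline. With equal numbers of peaks from each list, 15 of the 41 were marked at day 5 and 14 without doxycycline. At that setting 15.7% of all protein-coding genes were marked at day 5 and 14.4% without doxycycline.

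The SCF ligase core and its cofactors were marked in 4 of 6 cases in each library, beside 27.4% of all protein-coding genes at day 5 and 14.4% without doxycycline. CKS1B, a cofactor of SKP2, had the most summit fragments of the wider list, 62 at day 5 and 56 without doxycycline. The same peaks also lay at an end of SHC1. By fold CKS1B was not the highest, with 6.82 at day 5 and 9.63 without doxycycline, where RBX1 had 10.7 at day 5 and 12.3 without doxycycline. RBX1, the RING subunit, had 28 at day 5 and 30 without doxycycline, and CAND1, which exchanges F-box receptors, 26 at day 5 and 22 without doxycycline. SKP1, the adaptor of F-box proteins, was listed without doxycycline only with 7. NEDD8, the modifier that activates cullins, was listed at day 5 only, with 17 fragments beyond its far end, in a peak shared with MDP1, and 11 at its start. CUL1, the scaffold, was not marked, although a day 5 peak of 9 fragments lay inside it.

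Other ubiquitin ligases were marked in 5 of 10 cases at day 5 and 3 of 10 without doxycycline. The shares of all protein-coding genes were 27.4% at day 5 and 14.4% without doxycycline. SPOP, a substrate receptor of cullin ligases, had 18 fragments at day 5 and 7 without doxycycline, FBXW11, an F-box receptor related to BTRC, 18 at day 5 and 15 without doxycycline, and TRPC4AP, a receptor through which Myc is ubiquitinated, 16 at day 5 and 8 without doxycycline. TRIM32, a RING-type ligase, was listed at day 5 only with 8. Of 5 further deubiquitinases, USP37 had 24 fragments at day 5 and 17 without doxycycline, in peaks shared with CNOT9, USP22 was listed at day 5 only with 23, and USP7, USP13 and USP2 were not marked.

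Kinases were marked in 4 of 11 cases (36.4%) at day 5 and 3 of 11 (27.3%) without doxycycline. Of all protein-coding genes 27.4% were marked at day 5 and 14.4% without doxycycline. GSK3A, the close relative of GSK3B, had 29 fragments at day 5 and 31 without doxycycline, where GSK3B had 16 at day 5 and 9 without doxycycline. AURKB, another mitotic kinase, had 15 at day 5 and 8 without doxycycline and so was in both lists, whereas its relative AURKA was not. CSNK2A1, a catalytic subunit of casein kinase, with 12 and CDK1, the kinase of mitotic entry, with 7 were listed at day 5 only. Phosphatase subunits and regulators were marked in 4 of 9 cases (44.4%) at day 5 and 3 of 9 (33.3%) without doxycycline, beside the same shares of all genes. SET, an inhibitor of PP2A, had 37 fragments at day 5 and 30 without doxycycline, in peaks shared with DYNC2I2, and PPP2R5A, the subunit that directs PP2A to Myc, 15 at day 5 and 6 without doxycycline. PPP2CA, the catalytic subunit, and AXIN1, a scaffold, were listed at day 5 only with 8 each. PTPA, an activator of PP2A, was marked without doxycycline only, with 6 fragments in a peak shared with CRAT. That peak stood at rank 3465 of 3472. At day 5, peaks of 12 and 13 fragments lay inside PTPA, more than 1 kb from its ends. PPP2R1B, the other scaffold of PP2A, had no mark in either library, in contrast to PPP2R1A.

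**Figure D4:**
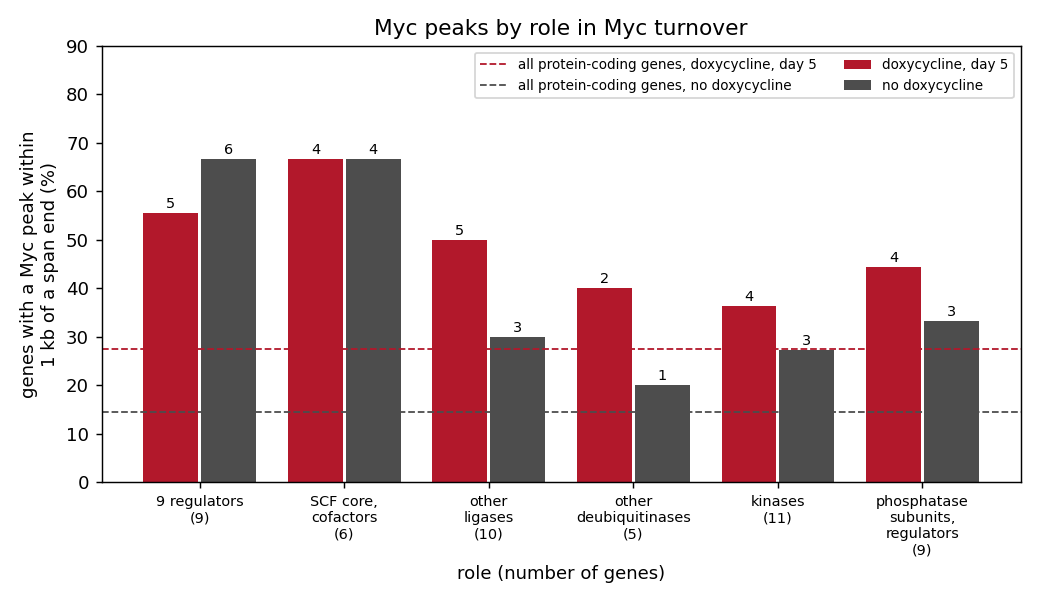
Share of genes with a Myc peak within 1 kb of a span end (y axis, %; numbers of genes above the bars) by role in Myc turnover (x axis), at day 5 of doxycycline (red, left) and without doxycycline (grey, right), with dashed lines at the shares of all protein-coding genes, 27.4% at day 5 and 14.4% without doxycycline. Of the 9 regulators 5 were marked at day 5 and 6 without doxycycline, and 4 of 6 genes of the SCF core in each library.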

How the data were processed

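Peak lists of Myc CUT&Tag from 2 libraries were used, grouped by sample title. Reads were processed with MACS2, Bowtie2, Trim Galore and deepTools on hg38, per the submitters' processing notes, with versions, settings and any control not given in the sources used here. Peaks had been called separately for each library, and a deposited list has 10 columns. The score the authors deposited is the integer part of 10 times the −log10 q-value. The deposited fold is a ratio of the summit to the local background of that library, and the deposited −log10 p-value and −log10 q-value are those of the summit. The lowest −log10 q-value was 1.33 in both lists.

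Summit fragments were the whole number for which fold equals (fragments + 1)/(background + 1) and the Poisson upper tail gives p, within 0.001 in −log10 p. The recovery was tested on values simulated with these same formulas. That checks the calculation and cannot show that the formulas hold for the deposited values. Peaks on chromosomes 1 to 22, X and Y were set against RefSeq gene spans of GRCh38.p14, the hg38 assembly, and the best peak of a gene was that with the highest −log10 q. Peaks were shared when they overlapped by at least 1 bp. With 1 library per condition no test was made. The 9 genes, the wider list of 41 genes, the rule for named genes and the hexamers were chosen with earlier results of these data known. Named were all 9 genes, the marked genes of the wider list by role, neighbours with an end within 1 kb of a marking peak (for the wider list, protein-coding ones, added after seeing the data), and the 3 genes nearest to PPP2R1A in rank percentile. CUL1, USP7, USP13, USP2 and PPP2R1B, which had no mark, were named after their values were seen. The values of 2 genes of the wider list are not reported here. Alternatives were other gene-end windows, stricter or equal peak numbers, summit position and stricter overlap. Work was done in Python 3.11.15 with pandas 2.3.3, numpy 2.4.6 and scipy 1.17.1.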

Additional observations from a re-analysis of the deposited data

How the results depend on the processing

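With gene-end windows of 500, 2500 and 5000 bp, a −log10 q of at least 2, or the summit within the window, 5 or 6 of the 9 genes were marked at day 5 and 5 to 7 without doxycycline. Over these settings 25.7% to 32.2% of all protein-coding genes were marked at day 5 and 13.4% to 17.6% without doxycycline. The lowest shares were those of the 500 bp window and the highest those of the 5000 bp window. HUWE1 was added in both libraries from 2500 bp, and SKP2 was lost at a −log10 q of 2. With the better-ranked 50% of peaks, 4 of the 9 genes were marked at day 5 and 3 without doxycycline, 2 of them in both lists (USP36 and PPP2R1A). The order of the libraries by marked genes of the 9 was thus the reverse of that in the main setting. Of the wider list, 15 genes were marked at day 5 and 8 without doxycycline. Of all protein-coding genes, 15.3% were marked at day 5 and 8.02% without doxycycline. Lower numbers follow here from the construction of shorter lists. With equal numbers of peaks 15.7% of all protein-coding genes were marked at day 5, and 4 of the 9 genes, against 14.4% and 6 of 9 without doxycycline. FBXW7, USP36, PPP2R1A and GSK3B stayed in both lists under reciprocal overlap of 50% and with summits within 500 bp. Ratios of deposited folds lay inside the intervals of the fragment ratios for these 4 genes. This is not an independent check, because the fragments were recovered from the same folds and the intervals were wide. No paired analysis was possible because the 2 Myc libraries are single and carry no replicate number. The depth of the libraries is unknown, and 34.8% of peaks at day 5 and 42.2% without doxycycline had fewer than 10 summit fragments.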
